A study of Mus musculus with 2 samples.

Results

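Open CpG-poor promoters are the DNase I hypersensitive sites that lie at gene starts with few CpG dinucleotides. They were chosen by sequence and by peak calls. A protein-coding gene counted as CpG-poor where the ratio of observed to expected CpG, at its highest over the annotated start sites with 500 bases to either side, was below 0.6. Its promoter counted as open where a peak lay within 1 kb of a start site in both libraries. Of 10614 CpG-poor genes, 2332 were selected in this way (22.0%). The promoter peaks of these genes are the members, 2943 of the 42454 peaks of replicate 1 and 3257 of the 60683 peaks of replicate 2. Peaks that also lay within 1 kb of a start of a CpG-rich gene were left out, which removed 161 and 168 peaks. Of the 2332 genes, 2242 kept a member peak in both libraries, 2 kept one in 1 library alone, and 88 had only peaks that touched a CpG-rich promoter. The 2242 are called member genes below.

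The data are DNase-seq, in which the nuclease DNase I cuts accessible DNA in nuclei and the cut sites are sequenced. Spleens came from B6CASTF1/J females at an age of 36 days, F1 animals of a cross between C57BL/6 and CAST, with no treatment named in the labels. There was 1 group of 2 libraries, labelled biological replicates 1 and 2. The labels give both libraries the same donor entry while describing differently numbered females, so the spread between them may in part be technical. With 1 group there is no contrast, and since peak calls chose the members, their strength is described and not tested. Total read depth is unknown, and signal, the authors' own value per peak, was used only to rank peaks within a library, from rank 1 for the strongest. How reads from CAST alleles aligned to the C57BL/6 reference was not tested.

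Promoters of vertebrate genes fall broadly into 2 kinds. CpG-rich promoters lie in CpG islands, are mostly unmethylated and accessible in all cells, and serve housekeeping and developmental genes. CpG-poor promoters are often methylated and closed outside the cells that use them, more often carry a TATA box, and serve many cell type-specific genes. In the spleen such genes include antigen receptors and their signalling chains in lymphocytes, globins and membrane proteins in red cell precursors, and phagocyte oxidase subunits in myeloid cells. Factors known to act at promoters of blood cells include PU.1 and other ETS proteins, RUNX, GATA and the octamer-binding proteins.

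Sequences of 7 member peaks from the reference assembly mm10 are given, each on the strand of its gene. They show the range of elements the results turn on: the strongest peak of the best-ranked gene in the B cell, T cell, erythroid and macrophage lists, and of the best-ranked gene holding the PU.1 motif, the TATA box or the octamer in that peak. Cr2 (chr1:195176687-195176860, minus strand) encodes complement receptor 2 of B cells, and Ccr7 (chr11:99155048-99155240, minus strand) a chemokine receptor that guides naive T cells. Epor (chr9:21962501-21962760, minus strand) encodes the erythropoietin receptor, and Ncf4 (chr15:78244741-78244830, plus strand) the p40 subunit of the phagocyte NADPH oxidase. Orc4 (chr2:48949247-48949520, minus strand) encodes a subunit of the origin recognition complex, Tubb2a (chr13:34077981-34078160, minus strand) a beta-tubulin, and Rras (chr7:45017641-45017940, plus strand) a small GTPase. The peaks of Epor, which lies in an intron, and Rras, which lies upstream, do not reach the start site. Stretches that ran on into untranslated exon were shortened. Capitals mark the motif matches found, with GAGGAAGT for PU.1, TGTGGT for the RUNX core, TGANTCA for AP-1, TTGCNNAA for C/EBP, ATGCAAAT for the octamer, TGACGTCA for the cyclic AMP response element (CRE), and TATAAA, on the gene's strand alone, for the TATA box. The others were read on both strands, and none of the matches marked overlap. Of windows of 200 bases on the starts of all genes, 2.32% held the PU.1 motif, 9.70% the RUNX core, 3.96% AP-1, 5.49% C/EBP, 0.900% the octamer and 2.08% the CRE.
Cr2: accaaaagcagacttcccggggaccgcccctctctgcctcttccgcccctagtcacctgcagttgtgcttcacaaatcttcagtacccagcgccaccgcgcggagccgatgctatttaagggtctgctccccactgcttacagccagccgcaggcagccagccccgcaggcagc
Ccr7: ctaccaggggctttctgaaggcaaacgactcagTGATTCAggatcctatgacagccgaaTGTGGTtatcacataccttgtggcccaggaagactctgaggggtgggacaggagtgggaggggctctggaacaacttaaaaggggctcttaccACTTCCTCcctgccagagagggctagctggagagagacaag
Epor: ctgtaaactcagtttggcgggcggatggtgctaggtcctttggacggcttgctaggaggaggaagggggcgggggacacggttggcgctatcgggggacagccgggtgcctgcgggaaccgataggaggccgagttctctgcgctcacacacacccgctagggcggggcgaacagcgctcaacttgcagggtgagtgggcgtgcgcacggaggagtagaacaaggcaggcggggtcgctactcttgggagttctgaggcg
Ncf4: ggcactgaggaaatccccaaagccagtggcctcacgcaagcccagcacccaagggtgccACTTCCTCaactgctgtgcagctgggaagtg
Orc4: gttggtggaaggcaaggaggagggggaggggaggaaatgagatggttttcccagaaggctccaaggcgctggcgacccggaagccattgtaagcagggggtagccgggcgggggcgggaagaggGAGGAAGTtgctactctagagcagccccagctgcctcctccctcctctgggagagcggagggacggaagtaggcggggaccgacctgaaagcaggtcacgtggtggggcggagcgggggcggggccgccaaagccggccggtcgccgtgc
Tubb2a: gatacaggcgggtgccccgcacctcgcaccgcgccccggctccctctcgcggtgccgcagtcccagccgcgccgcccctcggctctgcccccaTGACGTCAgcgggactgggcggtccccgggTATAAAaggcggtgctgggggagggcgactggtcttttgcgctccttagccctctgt
Rras: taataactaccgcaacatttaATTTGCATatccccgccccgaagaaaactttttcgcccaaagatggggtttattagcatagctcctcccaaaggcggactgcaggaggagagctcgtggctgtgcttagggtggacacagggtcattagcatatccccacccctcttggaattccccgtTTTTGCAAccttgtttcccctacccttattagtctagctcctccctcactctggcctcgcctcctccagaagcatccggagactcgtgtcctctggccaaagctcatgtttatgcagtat

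In the Ccr7 and Ncf4 promoters the PU.1 motif lay beside the start, its first base 11 and 1 bases upstream, while in Orc4 it began 120 bases upstream. None of these 3 matches was touched by a deposited footprint, a short protected stretch inside open chromatin, in either library. In Tubb2a the TATA box began 30 bases and the CRE 60 bases upstream of the start, and both were touched by a footprint in both libraries. So were the octamer and the C/EBP motif of Rras. Cr2 and Epor held no match to the motifs marked. No match says only that these letters are not in this window.

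Accessibility at gene starts rose with CpG content across the whole range. Replicate 1 had a promoter peak at 2363 CpG-poor genes (22.3%) and replicate 2 at 2811 (26.5%), against 9266 of 11054 CpG-rich genes with a peak in both (83.8%). Among genes with a ratio under 0.1, 39 of 1188 were open in both libraries (3.28%). The share was 6.03% between 0.1 and 0.2, 11.7% between 0.2 and 0.3, 23.7% between 0.3 and 0.4, and 39.5% between 0.4 and 0.5. Of 1610 genes between 0.5 and 0.6, 1008 were open in both (62.6%), and of 2542 genes between 0.6 and 0.7, just past the threshold, 1896 were (74.6%). The threshold at 0.6 thus fell on a slope and not at a step. The open genes nearest to it on the inside were Irs3, Etnk2 and Cwc25, the last 2 with ratios of 0.5999 and 0.5997, and on the outside Nabp2, Zkscan1 and Mfsd4b3, the last 2 with a ratio of 0.6001. The strongest promoter peak of Cwc25 ranked in the top 12.5% and 8.73% of peaks in replicates 1 and 2, and that of Mfsd4b3 in the top 16.2% and 8.62%.

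**Figure D1:**
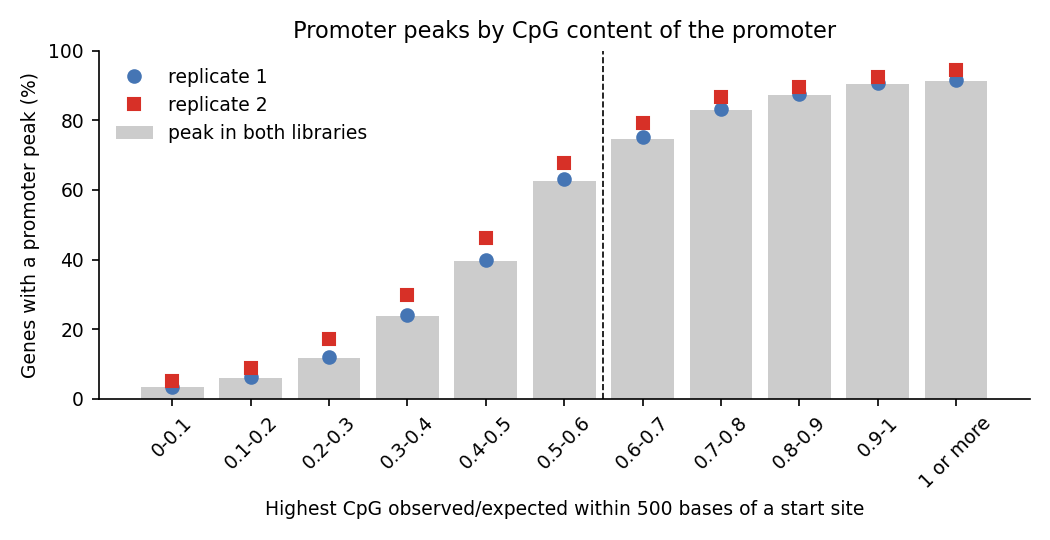
Share of protein-coding genes with a promoter peak (vertical axis, percent) by the highest CpG observed/expected ratio of the promoter (horizontal axis), with bars for a peak in both libraries, points for each library and a dashed line at the threshold of 0.6. The bars rise from 3.28% below 0.1 to 62.6% just under the threshold and 74.6% just above it, with no step there.

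Most other CpG-poor genes were closed in both libraries. No library had a peak at 7772 promoters, replicate 2 alone had one at 479 and replicate 1 alone at 31. Of the 479, 279 had a peak in the longer of the authors' lists for replicate 1. Of the 7772, 116 had a peak in the longer lists of both libraries. The lopsided counts go with the larger number of peaks called in replicate 2, and its part in them was not tested.

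Member peaks were of middling strength. Their median rank stood at 38.4% of the list in replicate 1 and 29.8% in replicate 2, where 0 is the strongest (34.1% ± 6.06, SD, n = 2). Peaks at CpG-rich promoters stood at 22.6% and 20.1%, and peaks away from promoters that both libraries shared at 58.8% and 42.7%. In both libraries the members thus lay between the other classes, and their 2 values did not overlap with either. Only 7.68% and 14.1% of members were in the top 10% of the list, against 25.9% and 30.7% of CpG-rich promoter peaks. The median width was 200 bases in each library, and the median GC content of the central 200 bases was 58.5% in each, against 66.5% and 66.0% at CpG-rich promoters and 52.0% in both libraries away from promoters. Rank followed CpG content among the members too: genes with a ratio from 0.5 to 0.6 had a median rank of 22.2% and 16.4% for their strongest peak, and genes from 0.1 to 0.2 of 42.4% and 28.9%.

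In the median the peaks sat just upstream of the start site, but 18.7% and 21.1% of midpoints lay over 500 bases away. The median midpoint was 14 bases upstream in replicate 1 and 15 bases upstream in replicate 2, and 55.8% and 52.7% of midpoints lay within 100 bases of a start. A start site was covered by 56.7% and 53.6% of the peaks. Midpoints lay upstream of the gene for 41.6% and 41.3%, in an intron for 26.9% and 30.4%, in untranslated exon for 26.7% and 24.2%, and in coding exon for 4.72% and 4.18%. Peaks near the start were the stronger ones, with a median rank of 30.4% and 22.0% within 100 bases against 50.3% and 43.2% beyond 500 bases. Of the 2242 member genes, 1612 had a single member peak in replicate 1 and 1427 in replicate 2, while 141 and 235 had 3 or more. St6gal1, a sialyltransferase that modifies B cell glycans, had the most in replicate 1, with 7, and Shisa5, an endoplasmic reticulum protein, the most in replicate 2, with 6.

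The authors' cut rate track gave the extent of the open stretch. Bases counted as accessible at a false discovery rate of 0.001 or less in that track. Within 1 kb of the start nearest their strongest member peak, member genes had a median of 413 and 488 accessible bases. CpG-rich open genes, taken from the start nearest their strongest peak, had 775 and 834. The start was thus chosen by the peak, and high accessibility close to it follows in part from that choice. Member genes with a ratio below 0.3 had 283 and 389. Accessibility was highest in the 50 bases before the start, where 79.3% and 84.1% of bases were accessible at member genes and 94.7% and 96.0% at CpG-rich open genes. The stretch at or above 50% of that maximum spanned 400 and 500 bases at member genes and 750 and 800 at CpG-rich genes. The open stretch of a CpG-poor promoter was thus narrower in both libraries. Track and peaks come from the same alignments, so the values describe the members and are no separate evidence for them.

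**Figure D2:**
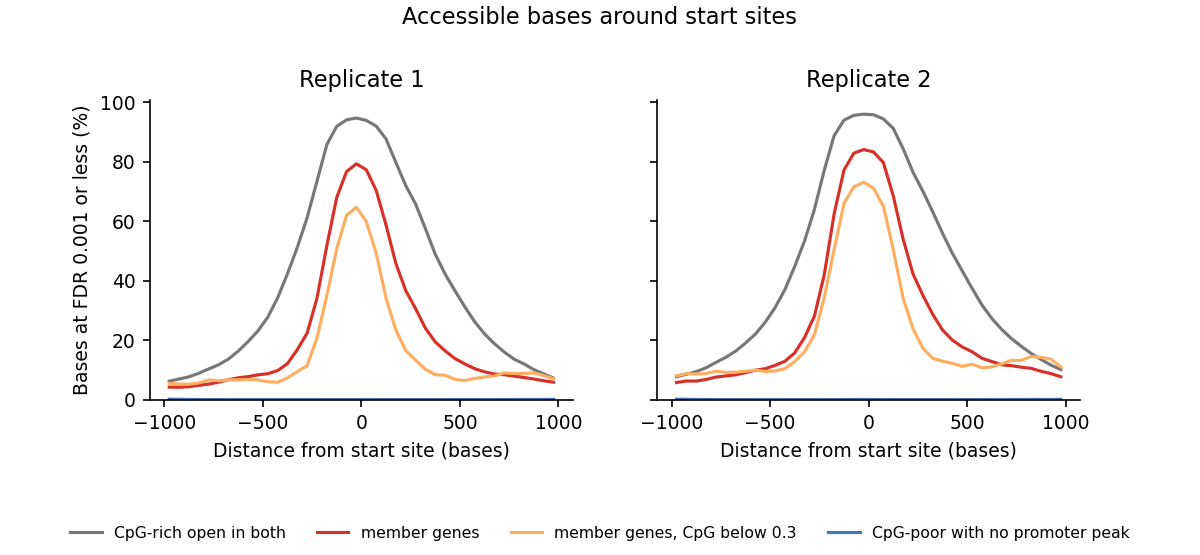
Share of bases called accessible at a false discovery rate of 0.001 or less (vertical axis, percent) by distance from a start site (horizontal axis, bases, in bins of 50), with 1 panel per library and 1 line per gene class. The start is the one nearest the strongest peak at open genes and the 5′-most one at genes without a promoter peak. Member genes peak at 79.3% and 84.1% just before the start, under the CpG-rich line at 94.7% and 96.0%, and CpG-poor genes without a promoter peak lie along 0.

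None of the 12 best-ranked member genes was on a marker list of spleen cells or of other tissues. Dynlt1b, a dynein light chain, held the member peak with the best mean rank, 4 in replicate 1 and 2 in replicate 2 (chr17:6430021-6430180 in both). Of the 31-base words in this peak, 53.1% also occur elsewhere in the genome, so its reads cannot be placed with certainty. Nfe2l2, the transcription factor NRF2 of the oxidative stress response, followed with ranks of 172 and 132. The ranks of Copg1, a subunit of the coat of Golgi vesicles, were 54 and 268, and those of Cd82, a tetraspanin, 112 and 295. H2-D1, a classical MHC class I heavy chain that presents peptides to CD8+ T cells, had ranks of 294 and 210. The other 7 of the best 12 were Chst12, a chondroitin sulfotransferase, Hexim2, an inhibitor of the elongation factor P-TEFb, Mypop, a Myb-related protein, Glo1, which detoxifies methylglyoxal, Stom, the membrane protein stomatin, and the neighbours Nadsyn1 and Dhcr7, the latter of cholesterol synthesis. Nadsyn1 and Dhcr7 shared 1 strongest peak, with ranks of 309 and 485. All 12 had a CpG ratio between 0.520 and 0.588, close under the threshold. At the other end, Ccl24, a chemokine for eosinophils, stood at 99.3% and 95.5% of the list, and the glycine receptor subunit gene Glra1 at 98.4% and 97.9%. Zfp947, Gng11 and Gm14305 stood between 99.5% and 99.9% in replicate 1 and between 96.6% and 99.4% in replicate 2.

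Sequence shared with other loci was rare among the members. In 45 members of replicate 1 (1.53%) and 52 of replicate 2 (1.60%) at least 50% of the 31-base words also occurred elsewhere in the genome. They included Gbp9 and Gbp8 of the guanylate-binding proteins, the apoptosis inhibitor Bcl2a1a, the receptor Lilra6, and Zfp947 and Gm14305. The peaks at these genes are uncertain.

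Genes of B cells, which are abundant in the spleen, were open almost without exception. Of 32 CpG-poor genes of the B cell list, 31 had a promoter peak in both libraries, beside 22.0% of all CpG-poor genes, and the remaining gene, the receptor Fcrl5, had one in replicate 2. The median rank of their strongest peaks was 25.3% and 12.3%. Cr2 ranked 3296 in replicate 1 and 3060 in replicate 2, or 7.76% and 5.04% of the list. Cd74, the invariant chain of MHC class II, ranked 4662 and 2324, and H2-Aa, a class II alpha chain, 4245 and 3095. Tnfrsf13c, the BAFF receptor needed for B cell survival, ranked 4474 and 3106. The weakest of the 31 in both libraries was Btk, the tyrosine kinase downstream of the B cell receptor and named after its values were seen, at 74.6% and 61.2%. The range was thus wide, and 30 of the 31 stood better in replicate 2 as percent of its longer list. The 31 include Bcl2a1a, named above for shared sequence.

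T cell genes differed between the libraries. Of 28 CpG-poor genes of the T cell list, 12 were open in both, 10 in replicate 2 alone, 1 in replicate 1 alone and 5 in neither. Ccr7 ranked 8853 and 6048. Lat, the adaptor of T cell receptor signalling, ranked 10922 and 9551, and the adhesion receptor Cd2 13967 and 11740. The median rank was 60.3% in replicate 1 and 30.9% in replicate 2. All 12 stood better in replicate 2 as percent of its longer list. Cd3d, of the T cell receptor complex, Cd4 and Ctla4 were closed in both, and Cd3d had a peak in the longer list of 1 library. In a whole tissue, fewer cells of a type and weaker accessibility in each cell cannot be told apart. Of 17 CpG-poor genes of natural killer and cytotoxic cells, 1 was open in both, Prf1, encoding the pore-forming protein perforin (50.9% and 32.5%), and 5 in replicate 2 alone. Ccl5, Ctsw and Gzma were closed in both.

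Erythroid genes, of the red cell precursors that the mouse spleen houses, were open at 11 of 21 CpG-poor promoters in both libraries and at 7 more in replicate 2. Epor ranked 12853 and 12511, its peak lying 875 bases inside the gene. Icam4, a red cell adhesion protein, ranked 12369 and 17732, Trim10, a ubiquitin ligase of red cell differentiation, 25781 and 17317, and Hbb-bt, an adult beta-globin, 24338 and 21705. The median rank was 63.8% and 37.7%, so these peaks were weaker than those of the B cell list in both libraries. Alas2, the enzyme that opens the haem pathway in erythroid cells, was closed in both. So were Hba-a1 and Hba-a2, copies of the alpha-globin gene whose near-identical sequence makes the call uncertain.

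Of 38 CpG-poor genes of the macrophage and monocyte list, 11 were open in both libraries, 11 in replicate 2 alone and 16 in neither. Ncf4 ranked 11394 and 4823, and Ncf1, the p47 subunit of the same oxidase, 10248 and 7969. Spi1, which encodes PU.1 itself, ranked 10561 and 6685 with a peak in untranslated exon, 615 and 605 bases downstream of the protein-coding start site used, and Ly86, a partner of the Toll-like receptor relative RP105, 12561 and 9244. Several of these genes are also used by B cells, Spi1 and Ly86 among them, so that the list does not show macrophages alone. Adgre1, the F4/80 antigen, C1qc and Ccr2 were closed in both. Adgre1 had a peak in the longer lists of both libraries.

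Of the smaller lists, the stromal (25%) and endothelial (16.7%) shares lay near the 22.0% of all CpG-poor genes, the plasma cell share (57.1%) above it, and the neutrophil and megakaryocyte shares were 0. The median CpG ratios of these 5 lists were 0.272, 0.274, 0.364, 0.148 and 0.186, in that order. Of all genes, 6.03% were open between 0.1 and 0.2, 11.7% between 0.2 and 0.3 and 23.7% between 0.3 and 0.4. The 22.0% is thus not matched to the CpG content of a list. The interferon-induced protein Bst2, also known from plasmacytoid cells, was the sole open gene of 9 in the dendritic cell list, at 15.9% and 11.6%. In the plasma cell list 4 of 7 were open: Irf4, a factor of plasma cell differentiation (16.1% and 11.7%), Mzb1, Tnfrsf13b and Fkbp11. Jchain and Tnfrsf17 of that list were closed in both libraries, in the longer lists too, and Slamf7 was open in replicate 2 alone. The share of this list thus does not hold for all of its markers. Of the neutrophil list 0 of 21 were open in both and 1 in replicate 2, and of the megakaryocyte list 0 of 13 and 1. Camp, Chil3 and Csf3r of neutrophils and Clec1b, Gp1ba and Gp5 of platelets were closed. Endothelial genes were open at 2 of 12, Pecam1 and the addressin Madcam1, and stromal genes at 3 of 12, Col1a1, Acta2 and Tnfsf11. The strongest peaks of the 3 stromal genes lay in introns, with midpoints 952 to 989 bases downstream of the start, and with promoters of 500 bases to either side 0 of the 12 were open.

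Most lists of other tissues had few open genes, with the muscle list the exception at 3 of 14 (21.4%), close to the 22.0% of all CpG-poor genes. Together 4 of 69 CpG-poor genes of the liver, pancreas, muscle, neuron, and keratinocyte and gut lists were open in both libraries (5.80%), against 76 of 210 of the spleen cell lists (36.2%). The 4 were Rbpjl of the pancreas list and Actn3, Tnni2 and Actn2 of the muscle list. None of 17 liver genes and none of 13 keratinocyte and gut genes had a promoter peak in either library. Albumin (Alb), the amylase gene Amy2a5 and the muscle actin Acta1 were among the closed genes. Actn3, a fast muscle fibre actinin, stood at 7.86% and 5.95%, close to Cr2, with its peak at positions -742 and -722 relative to the start.

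**Figure D3:**
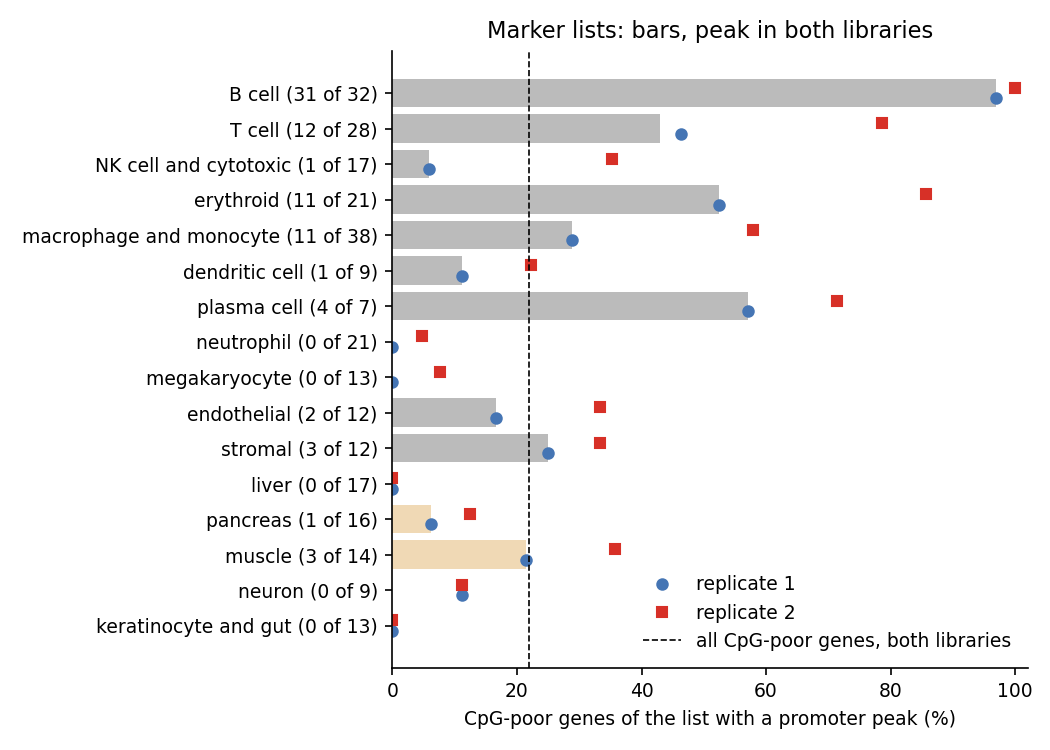
Share of the CpG-poor genes of each marker list with a promoter peak (horizontal axis, percent), with bars for both libraries, grey for spleen cells and tan for other tissues, points for each library, and a dashed line for all CpG-poor genes. The B cell bar reaches 96.9%, and replicate 2 lies at or above replicate 1 in every list.

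**Figure D4:**
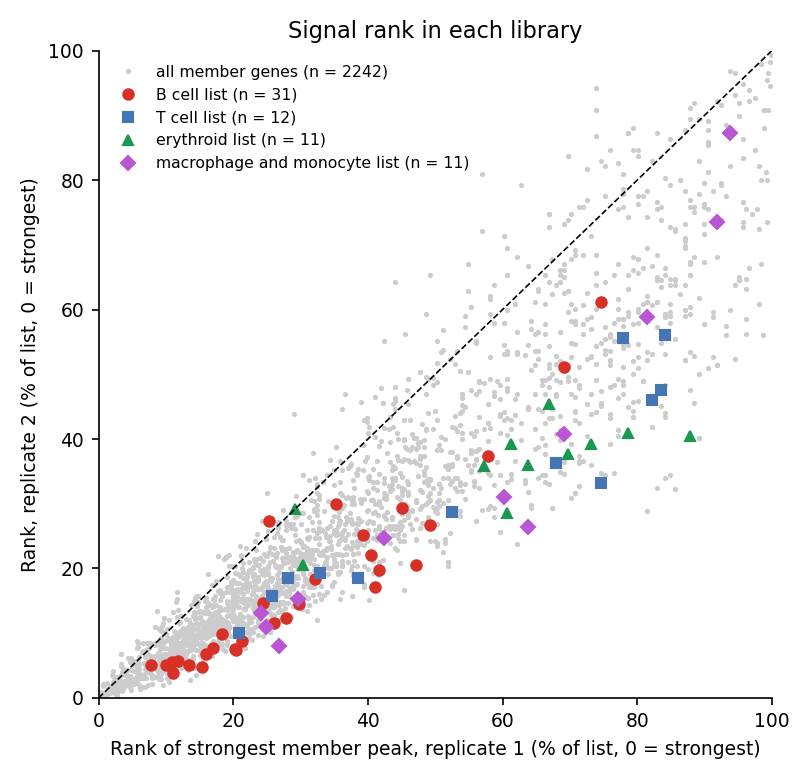
Rank of the strongest member peak of each of 2242 member genes in replicate 1 (horizontal axis) and replicate 2 (vertical axis), as percent of the library's list with 0 the strongest, with genes of 4 lists in colour and a dashed line of equal rank. Most points lie under the line, the B cell genes toward the strong end and the T cell, erythroid and macrophage genes spread to the weak end of replicate 1.

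Ranks followed each other closely between the libraries, with a Spearman rho of 0.957 across the 2242 member genes, given as a description since genes are not independent replicates and all share the same 2 libraries. The strongest peak was the same, by overlap, at 96.1% of them, and 96.3% of member peaks of replicate 1 and 87.0% of replicate 2 overlapped a peak of the other library. The rule asked for a peak in both libraries, so these shares follow largely from the choice. At CpG-rich promoters 93.9% and 85.6% of peaks overlapped one of the other library. Of the 2242, 2037 stood better in replicate 2 as percent of the list, by a median of 8 percentage points over all member genes. The list of replicate 2 is longer, 60683 peaks against 42454, which lowers the percent of any given rank. Its part in these shifts was not tested. The shift was 12.7 points for the B cell list, 23.1 for T cells, 27.7 for erythroid genes and 18.3 for macrophages.

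Gene families, defined by symbol, ranged from fully closed to mostly open. Receptors of the nose and mouth were almost all closed: 3 of 1133 CpG-poor olfactory receptor genes were open (Olfr433, Olfr1509 and Olfr658), and 0 of 328 vomeronasal and 0 of 35 bitter taste receptors. Likewise 0 of 109 keratins and keratin-associated proteins, 0 of 10 granzymes and 0 of 25 Klr receptors of natural killer cells were open. Several immune families had shares above that of CpG-poor genes at large. Of the SLAM family, receptors by which lymphocytes contact each other, 7 of 9 were open, Ly9, Cd48 and Slamf6 best ranked. Of the Gimap GTPases of lymphocyte survival 6 of 8 were open, led by Gimap8, Gimap9 and Gimap5. The schlafens had 5 of 8, the guanylate-binding proteins 6 of 10, and the Toll-like receptors, sensors of microbes, 6 of 11, with Tlr4, Tlr9 and Tlr2 the strongest. Of the guanylate-binding proteins, Gbp9, Gbp8 and Gbp4 had strongest peaks with much sequence shared with other loci. Gbp8 and Gbp4 had equal ranks, 15980 and 18169. The count of this family is thus uncertain.

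Of the MHC genes 13 of 25 were open, led by H2-D1, H2-DMb2 and H2-Aa. H2-DMb2, a chaperone of class II peptide loading, ranked 2569 and 1159 and was the stronger of the class II genes named here. Interferon-induced Ifi and Ifit genes had 14 of 31, CD antigens 35 of 76, interleukin receptors 14 of 34 and members of the TNF and TNF receptor families 11 of 25. Of the secreted ligands, 7 of 32 interleukins (21.9%) were open, near the background of 22.0%, and 3 of 31 CC and CXC chemokines (9.68%). Chemokine receptors had 4 of 21 (19.0%), Cxcr5, which guides B cells to follicles, being the strongest at 21.3% and 8.83%. The highest count among the families was that of the zinc finger genes: 118 of 177 CpG-poor genes named Zfp were open (66.7%), Zfp809, Zfp46 and Zfp846 best ranked. These 3 had CpG ratios of 0.546, 0.59 and 0.546, and between 0.5 and 0.6, 62.6% of all genes were open. Family shares were not matched for CpG content. Cytochromes P450 had 8 of 90 and serpins 5 of 59.

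For most motifs member peaks lay between CpG-rich promoters and peaks away from promoters. The PU.1 motif was in 5.30% of the 200-base windows on member midpoints in replicate 1 and 5.80% in replicate 2 (95% Wilson intervals 4.55% to 6.17% and 5.05% to 6.66%, counting error only). At CpG-rich promoters it was in 2.01% and 2.26%, and away from promoters in 7.12% and 7.33%. In windows of the same length on start sites, it was at 4.42% of open CpG-poor genes, 2.61% of CpG-poor genes with no promoter peak and 2.32% of all genes. The RUNX motif TGTGGTTT, which contains the core, was at 1.80% and 1.96% of members, 0.557% and 0.630% of CpG-rich promoters and 3.81% and 3.78% of peaks away from promoters. The GATA motif AGATAA was at 4.55% and 4.97% of members, between 2.45% and 2.86% at CpG-rich promoters and 7.85% and 7.82% away from them. On start sites GATA was at 4.03% of open and 9.60% of closed CpG-poor genes, the opposite order to PU.1. Open and closed genes were not matched for CpG content in these shares. Among members GATA was at 8.12% and 8% where the gene's ratio was below 0.3, and at 3.4% and 3.59% where it was 0.45 to 0.6.

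Motifs that contain CpG ran the other way. The ETS motif CCGGAAGT was in 3.94% and 3.75% of members, 6.20% and 5.90% of CpG-rich promoter peaks and 1.04% and 1.06% of peaks away from promoters. Its CpG-free relative CAGGAAGT was in 5.23% and 5.16% of members, 2.34% and 2.59% of CpG-rich promoters and 6.28% and 6.36% of distal peaks. The box GGGCGG of SP factors was in 42.0% and 40.5% of members, 61.1% and 58.9% of CpG-rich promoters and 13.8% of distal peaks in both libraries. Since the members were chosen for few CpG, the frequency of motifs with CpG follows in part from the choice. The CTCF motif was in 3.16% and 2.86% of members and in 6.95% and 6.89% of distal peaks. The interferon regulatory factor motif was in 3.47% of members in each library, close to the 3.21% and 3.31% of distal peaks and above the 1.42% and 1.53% of CpG-rich promoters. Members also had the highest shares of the KLF box CCACCC, at 31.9% and 32.6% against 27.5% and 28% at CpG-rich promoters and 22.3% and 22.5% away from promoters. For the CCAAT box they had 28.3% and 26.8%, against 26.4% and 25.5% at CpG-rich promoters and 20% away from promoters in both libraries. The NF-kB and STAT motifs were also highest in members, but by differences within the members' Wilson intervals. NF-kB was in 9.11% and 8.9%, against 8.85% and 8.77% at CpG-rich promoters. STAT was in 5.54% and 5.47%, against 5.35% and 5.4% away from promoters. MEF2 was lowest in members, found in only 1 and 3 windows. Read backwards, the letters of NF-kB were in 9.55% and 9.7% of members, and those of the KLF box in 29.7% and 30.3%.

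Within the members, motif content shifted with CpG content. Where the gene's ratio was below 0.3, 13.4% and 13.5% of windows held the PU.1 motif, against 2.80% and 3.20% where it was 0.45 to 0.6. The interferon regulatory factor motif went from 7.22% and 6.46% to 2.15% and 2.04%, and the octamer from 3.07% and 2.77% to 0.835% and 0.773%. The ETS motif with CpG ran the opposite way, from 0.542% and 0.769% to 6.02% and 5.68%, as did the SP box, from 18.2% and 17.2% to 53.3% and 52.7%. Members of the most CpG-poor genes thus held these motifs of blood cell factors most often, in both libraries. Base composition also changes along this range, and its part was not tested. Read backwards as a control, the PU.1 motif was in 1.66% and 1.60% of member windows, and GATA, whose reversed letters were in 4.32% and 4.42%, hardly exceeded its control.

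**Figure D5:**
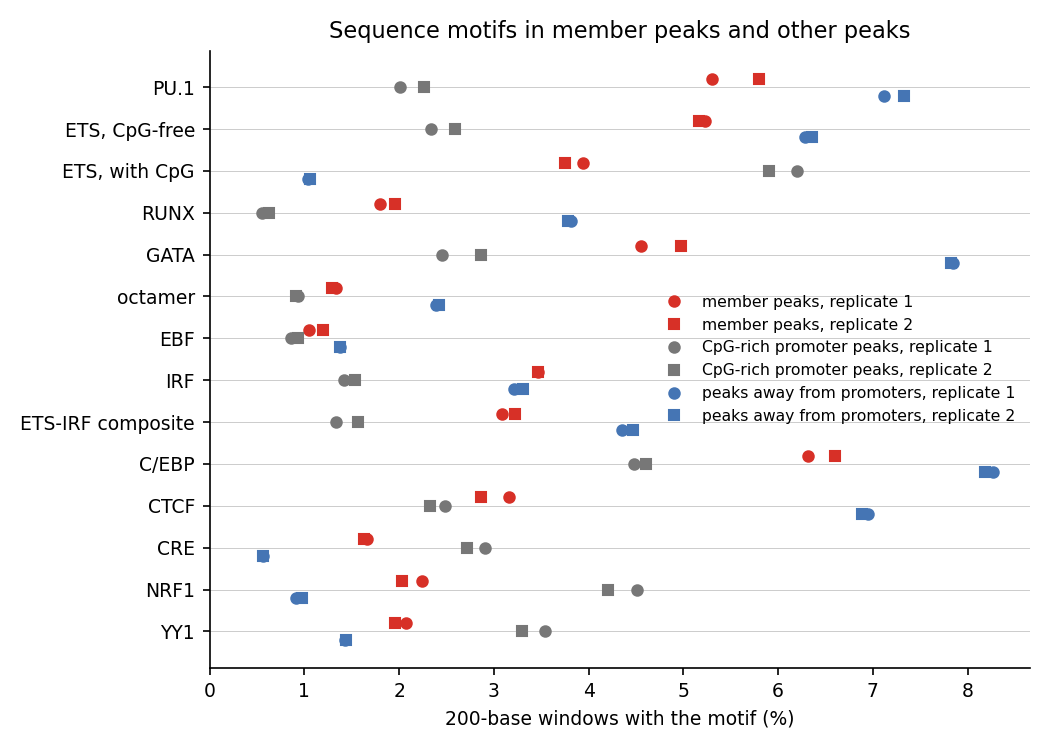
Share of 200-base windows on peak midpoints that hold each motif shown (horizontal axis, percent), for member peaks, CpG-rich promoter peaks and shared peaks away from promoters, with circles for replicate 1 and squares for replicate 2. Members lie between the other classes for every motif shown except that of interferon regulatory factors (IRF), where they lie highest.

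Among the genes of the marker lists, motifs were spread over different genes, which were picked out after their values were seen. The PU.1 motif was in the strongest peak of Blk, Cd37, Cd72 and Fcrl1 of the 31 B cell genes in both libraries, of Ccr7, Cd5 and Icos of the 12 T cell genes and of Ncf4 among the 11 macrophage genes, and in 0 of the 11 erythroid genes. The octamer was in the B cell genes Cd79b, Spib and Vpreb3. GATA was in Kel, Slc4a1 and Trim10 among the erythroid genes, and the RUNX core was in 6 of the 12 T cell genes in both libraries, among them Cd2, Cd28 and Il7r. These counts are small and no difference between the lists was tested.

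Footprint calls touched some motif matches more often than others, where touching is an overlap of 1 base or more and does not show that a match was protected. Member peaks held a mean of 2.69 footprints in replicate 1 and 3.26 in replicate 2 (2.98 ± 0.404, SD, n = 2), against 3.14 and 3.47 at CpG-rich promoters and 2.16 and 3.01 away from promoters. Members in the top 10% of the list held 4.39 and 4.43 and those in the last 10% 0.588 and 0.941. Peaks away from promoters held 4.46 and 4.53 in the top 10% and 1.01 and 1.87 in the last 10%. With each list cut into 10 parts by rank, part 1 the strongest, members exceeded these peaks in parts 2 to 5 alone. CpG-rich promoter peaks exceeded members in parts 1 to 3 alone. Both held in each library. The order of the class means thus did not hold at every rank. No footprint was found in 11.2% and 8.07% of members, against 19.5% and 15.8% at CpG-rich promoters and 9.48% and 1.86% away from promoters. Of the CTCF matches in member windows 90.3% and 93.5% were touched by a footprint, of the CRE 85.7% and 88.7%, of matches to the NRF1 motif GCGCATGC 81.4% and 86.6%, and of the early B cell factor (EBF) motif 67.7% and 79.5%. Read backwards, the EBF letters were touched in 35.3% and 35%. The ETS motif with CpG was touched in 56.9% and 65.1%, beside 20% and 26.7% for its letters read backwards. The SP box was touched in 58.3% and 67.9%, beside 55.3% and 65.5% read backwards. For NF-kB the reversed letters were touched more often, in 47.3% and 54.1%, beside 34.6% and 46.7%. The PU.1 motif was touched in only 22.6% and 30.7%, beside 17.6% and 26.9% for its letters read backwards, and GATA in 17.1% and 24.4%, beside 13.7% and 24.2%. Footprint calls thus covered a small part of PU.1 and GATA matches, little above the reversed letters. The gene with the most footprints over its member peaks was Mgat1, which starts the building of complex N-glycans, with 21 and 24, and Ppp1r16b had 10 and 24 and Shisa5 11 and 19.

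TATA boxes were rare at open CpG-poor promoters. The box TATAAA began 40 to 20 bases upstream of a start site, on the gene's strand, at 42 of the 2332 open genes, or 1.80% (95% Wilson interval 1.34% to 2.43%). It did so at 484 of 7772 CpG-poor genes with no promoter peak, or 6.23% (5.71% to 6.79%), at 1.20% of CpG-rich open genes and at 3.17% of all protein-coding genes. The share was lower in open than in closed genes in each of the 6 bins of CpG content, for example 1.68% against 7.30% between 0.1 and 0.2 and 1.39% against 2.76% between 0.5 and 0.6, though the intervals overlapped in every bin except that from 0.1 to 0.2. With genes of a single start site it was 1.93% against 6.52%. Genes are not independent replicates, so the intervals cover counting error alone. The 40 member genes with the box had weaker peaks, with a median rank of 50.6% and 32.0%, against 30.9% and 21.6% for the other 2202, and a lower median CpG ratio, 0.375 against 0.474. Tubb2a, printed above, ranked 7017 and 7551, and Serpinb1a, a protease inhibitor of myeloid cells, 10741 and 9362.

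Open CpG-poor genes also had open chromatin around them. Within 50 kb of the 5′-most start, the median number of peaks away from promoters was 2 in replicate 1 and 3 in replicate 2, equal to that of CpG-rich open genes and above the 0 and 0 of CpG-poor genes with no promoter peak. No such peak was found around 18.8% and 12.5% of open and 57.3% and 52.1% of closed CpG-poor genes. Open B cell genes had medians of 5 and 10, open macrophage genes of 4 and 7, open T cell genes of 3.5 and 7, and open erythroid genes of 2 and 2. Among chromosomes, the open share of CpG-poor genes ran from 14.9% on chromosome 14 to 28.8% on chromosome 19.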

How the data were processed

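The 2 DNase-seq libraries were taken as deposited. Per the deposited readme of each library, its alignments on mm10 gave its peaks and cut rate track, and the alignments with that track its footprints. Names of the aligner and callers are not given in the sources used. The deposited signal value per peak is the authors' own, of unknown scale, and was used as ranks, ties sharing the better one. For each run of bases, the cut rate track as deposited holds the authors' false discovery rate, a q-value. The shorter of each library's 2 peak lists was used, and the longer one as an alternative.

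Start sites were those of protein-coding transcripts in the basic GENCODE vM21 annotation, on the autosomes and X (Y was left out, the labels giving females), and sequence that of the RefSeq copy of mm10, with coordinates counted from 1. A gene's peak was any that overlapped 1 kb to either side of a start. Distances run from peak midpoints, motifs were sought in 200 bases about them, and a footprint touched a motif by 1 base or more. Motifs are letters, not sites. Motifs with no letters given in the text (CTCF, IRF, EBF, ETS-IRF, YY1, E box, NF-kB, STAT, MYB, TCF/LEF, T-box, MEF2, HNF1, HNF4 and ETS-RUNX) were short consensus patterns read on both strands. The KLF and CCAAT (NFY) boxes were read on both strands too. Repeated sequence was found by matching 31-base words to the genome on both strands.

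Members, gene lists, families and motifs were chosen with earlier results of these data known. The symbol patterns of 2 families, interleukins and keratins, were corrected after values were seen. Genes were named by mean rank of the strongest member peak: the best 12, up to 4 open and, alphabetically, up to 3 closed genes per list, up to 3 per family, the 3 on either side of the CpG threshold, the 3 with most footprints and the 5 weakest. Some genes that these rules name are not reported here. Sequences were taken from replicate 2's peaks, none from chromosome 18. With 1 group, no test was made. The rule was checked on simulated data. Python 3.11.15, NumPy 2.4.6, SciPy 1.17.1, pandas 2.3.3 and matplotlib 3.10.9 were used.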

Additional observations from a re-analysis of the deposited data

How the results depend on the processing

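No paired analysis was possible because the series holds 1 group. The count of open CpG-poor genes stayed within 1.5 times of 2332 with the longer list, promoters of 500 or 250 bases, shared peaks kept, the strongest 21227 peaks of each library, or a single library (2363 to 2811). It fell to 1324 with a CpG ratio below 0.5 and 805 below 0.4. Member peaks fell to 1656 and 984 in replicate 1 and 1865 and 1124 in replicate 2 under these thresholds, and to 1742 and 1767 with the strongest peaks, both by construction. The open share of 22.0% became 25.9% with the longer list, 20.4% with 500 bases, 14.7% with a ratio below 0.5, 14.8% with the strongest peaks, and 22.3% to 26.5% from a single library. The share of spleen list genes, 36.2%, became 47.1% with the longer list and 36.7% to 55.7% from a single library, replicate 2 giving the higher value. That of other tissues, 5.80%, became 10.1% with the longer list and 7.25% to 11.6% from a single library. Median rank and footprints per member moved by less than the spread between libraries in 8 of 8 cases. The mean PU.1 share of 5.55% became 3.54% in 100-base and 6.33% in 300-base windows, 7.74% with a ratio below 0.5, and 1.63% read backwards. The TATA share of 1.80% became 2.96% with TATAA, and 10.8% at closed genes. Other motif shares moved beyond the spread between libraries in 136 cases and stayed within it in 19. A shorter or longer window changes such a share by construction, and the libraries share most member peaks. These counts therefore do not measure how robust the comparison of classes is. Total depth is unknown, so closed means no peak called at the depth of these libraries.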
